A study of Ovis aries with 40 samples.

Results

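The genes described here are 7 genes of cartilage, the tissue that stiffens the wall of the large airways: ACAN, HAPLN1, MATN1, MATN3, COMP, SOX5 and SOX6. They were taken by name and are 7 of the 24478 genes in the count tables. All 7 were listed in each of the 4 tables used. RNA from proximal and distal lung of sheep (Ovis aries, American Romney breed) was sequenced at gestational days 65, 80, 100 and 120 and at term, day 147 in the labels. Wild-type animals (WT) and CFTR-/- animals (CF), which lack the cystic fibrosis chloride channel, gave 2 libraries for each of 20 combinations of genotype, region and age, 40 libraries in all. The study compared ages and genotypes within a region. Here the members were also compared between proximal and distal samples, because cartilage lies along the large airways.

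WT animals were naturally bred, and those at term were born naturally. CF animals were made by somatic cell nuclear transfer from 1 line of male fetal fibroblasts cut in CFTR exon 2, so they are clones, and cloning and genotype cannot be told apart. The sex of the WT animals is not given in the sources used here. Both WT replicates of day 100 carry 1 animal label, and they were kept as 2. Another animal label is shared by a WT library set (day 65, replicate 2) and a CF one (day 100, replicate 2), which were placed by their titles. The 16 WT libraries before term held 24670355 to 43700012 counted reads and the 16 CF libraries of the same ages 85773994 to 103139483, so before term genotype and depth cannot be told apart. At term the 4 WT libraries held 115937437 to 126749480 reads and the 4 CF libraries 117316905 to 119451372.

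Hyaline cartilage is a matrix of type II collagen fibrils filled with aggrecan, a proteoglycan that holds water and so resists compression. Chondrocytes make this matrix under the transcription factor SOX9, which works together with SOX5 and SOX6. In the airway, cartilage forms rings in the trachea and smaller plates along the bronchi, and it is absent from the alveolar region. The labels call the samples lung epithelial tissue, yet 8 smooth muscle genes summed to at least 318 CPM (counts scaled to library size) in every library. The chondrocyte genes COL2A1, COL9A1, COL9A2, COL9A3, COL11A2, CNMD, SOX9 and ACAN were above 0 in all 40, though as low as 0.0223 CPM for COL9A2. MATN1, also a chondrocyte gene, was at 0 in 9 of them. In bulk tissue, fewer cells of a type and less RNA per cell cannot be told apart.

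On Oar_v4.0, the build of the tables, ACAN lies on chromosome 18 from 19475894 to 19546337 on the plus strand. HAPLN1 lies on chromosome 5 from 80750069 to 80827051 on the minus strand, and COMP on the same chromosome from 4155703 to 4168858 on the plus strand. MATN1 spans 235690286 to 235701310 on chromosome 2, plus strand. Chromosome 3 carries MATN3 from 27653940 to 27674772 on the minus strand and SOX5 from 190022421 to 191171657 on the plus strand. SOX6 lies on chromosome 15 from 35279286 to 36032287, plus strand. The counts are over exons, and no member shared an exon base with another gene.

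All members were low. As RPKM, which divides each count by exon length and library size, the median over the 40 libraries was 0.902 for SOX5, 0.734 for ACAN, 0.463 for HAPLN1, 0.458 for MATN3, 0.408 for SOX6, 0.242 for COMP and 0.0466 for MATN1. SOX5 stood first although its level is divided by 39069 bases of exon, the longest of the 7. Neighbours in this order did not keep it from library to library. SOX5 was above ACAN in 20 of 40 libraries, ACAN above HAPLN1 in 29, HAPLN1 above MATN3 in 23, MATN3 above SOX6 in 22 and SOX6 above COMP in 29, whereas COMP was above MATN1 in 35. From here on, levels are CPM after TMM scaling over all 40 libraries, which compare 1 gene between libraries and not genes with each other.

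**Figure D1:**
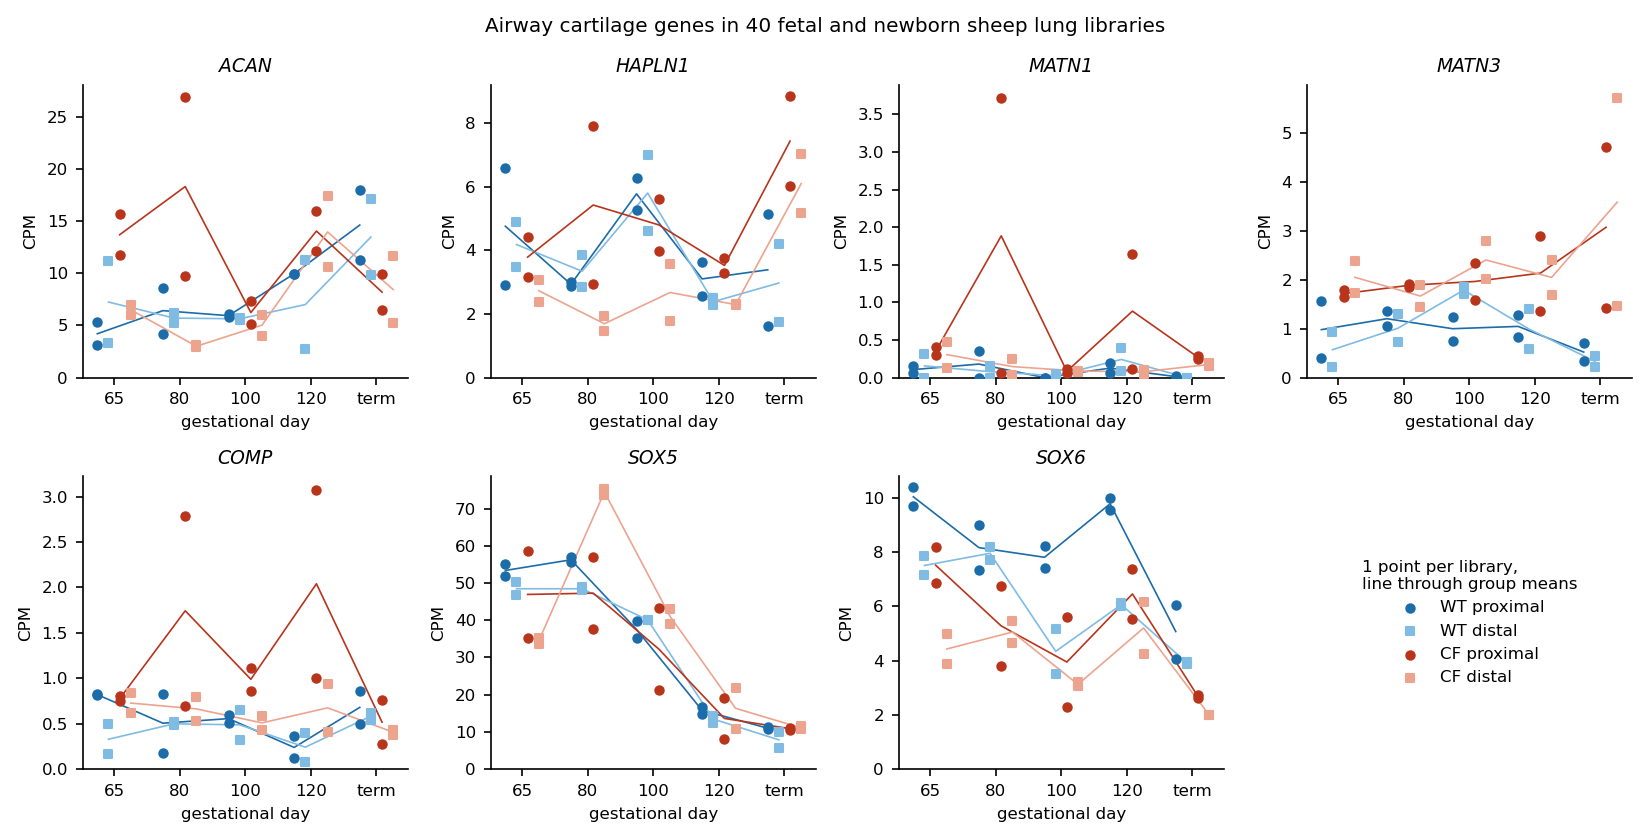
CPM of each member (vertical axis, linear, from 0) against gestational age in days (horizontal axis), 1 point per library and a line through the group means, for WT and CF proximal and distal lung. SOX5 went from 33.6 to 58.7 CPM at day 65 to 5.73 to 11.5 CPM at term, and in CF proximal lung MATN1 reached 3.71 CPM in 1 library of day 80.

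ACAN encodes aggrecan, the main proteoglycan of cartilage. In WT proximal lung it ran from 3.13 to 17.98 CPM (median 7.36, n = 10) and in WT distal lung from 2.73 to 17.1 CPM (median 5.97, n = 10). In CF proximal lung it ran from 5.15 to 26.9 CPM (median 10.8, n = 10) and in CF distal lung from 2.94 to 17.4 CPM (median 6.03, n = 10). The 4 ranges overlapped widely, and the highest distal libraries of WT and CF lay just under the highest of WT proximal lung. HAPLN1 encodes the link protein that ties aggrecan to hyaluronan. Its levels stayed within 1.46 to 8.84 CPM in all 40 libraries, with medians of 3.32 CPM in WT proximal, 3.66 in WT distal, 4.20 in CF proximal and 2.35 in CF distal lung (n = 10 each). Across the 40 libraries Pearson r of ACAN with HAPLN1 was 0.14 on log2 CPM, although their products sit in 1 complex.

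MATN1 and MATN3 encode matrilins, adaptor proteins that link collagen fibrils and proteoglycans. MATN1 is the matrilin best known from tracheal cartilage. It was the lowest member, at 0 in 9 of the 40 libraries, all 9 of them WT. A count of 0 allows up to 3 reads, which is 0.0251 to 0.113 CPM in those libraries, and this counts sampling error only. Outside 2 libraries MATN1 was at most 0.479 CPM. These were CF proximal day 80 replicate 2 with 399 reads (3.71 CPM) and CF proximal day 120 replicate 2 with 142 reads (1.65 CPM), where the other replicate of the same group had 6 reads (0.0572 CPM) and 12 reads (0.118 CPM).

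MATN3 ran from 0.331 to 1.57 CPM in WT proximal (median 0.935) and 0.208 to 1.86 CPM in WT distal lung (median 0.828, n = 10 each). In CF it ran from 1.37 to 4.72 CPM in proximal (median 1.82) and 1.44 to 5.72 CPM in distal lung (median 1.96, n = 10 each). COMP, a thrombospondin family protein of cartilage and tendon matrix, ran from 0.117 to 0.862 CPM in WT proximal and 0.0826 to 0.652 in WT distal lung. In CF distal lung it ran from 0.379 to 0.939 CPM, and in CF proximal lung from 0.272 to 3.08 CPM. The same libraries that were high in MATN1 held the highest COMP, at 2.79 CPM (day 80 replicate 2) and 3.08 CPM (day 120 replicate 2), against at most 1.11 CPM in the other 38.

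SOX5 and SOX6 encode related transcription factors that chondrocytes need, and both are also used in other tissues. SOX5 ran from 5.73 CPM in WT distal term replicate 2 to 75.3 in CF distal day 80 replicate 1. SOX6 ran from 4.08 to 10.4 CPM in WT proximal (median 8.62), 3.50 to 8.20 in WT distal (median 6.07), 2.28 to 8.20 in CF proximal (median 5.58) and 1.98 to 6.17 in CF distal lung (median 4.07, n = 10 each). Pearson r between members ran from -0.42 (ACAN with SOX5) to 0.41 (SOX5 with SOX6; n = 40 libraries, which share genotype, depth and age).

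CF proximal day 80 replicate 2 stood apart from its partner in 4 of the 7 members, at 2-fold or more (CPM + 0.1), and 11.6% of all 20779 genes tested were higher by as much between the same libraries. ACAN was 26.9 against 9.75 CPM, HAPLN1 7.92 against 2.93, MATN1 3.71 against 0.0572 and COMP 2.79 against 0.696. SOX5 (56.9 against 37.7), SOX6 (6.74 against 3.82) and MATN3 (1.92 against 1.86) differed by less. This replicate also held 562 CPM summed over 7 heart muscle genes, against 28.8 in its partner, with NPPA, the atrial natriuretic peptide, and MYL7, the atrial light chain, among them.

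The 7 tendon and perichondrium genes of that library summed to 269 CPM against 14.04, led by THBS4 at 184 CPM and KERA at 33.9 CPM. Of these 7, 6 were 2-fold or more higher, where 11.6% of all genes were, and SCX was lower (0.716 against 0.983 CPM). Airway basal and secretory genes summed to 77.2 CPM against 44.1. Among them KRT5, a keratin of basal cells, was 32.5 against 3.68 CPM and TP63 18.6 against 2.86, while SCGB1A1 (0.186 against 0.515), BPIFB1 (2.22 against 3.09) and SOX2 (22.9 against 33.7) were lower. Ciliated airway genes summed to 203 CPM against 245, with 3 of the 9 lower (FOXJ1, RSPH1 and TPPP3) and 6 higher. PAX1, a transcription factor of the vertebral and pharyngeal primordia, was at 0.372 CPM in this library, at 0.116 CPM in CF proximal day 120 replicate 2 and at 0 in the other 38. The distal library of the same animal had 0.252 CPM of MATN1, above the 0.0401 of its distal partner, and 2.94 CPM of ACAN against 3.08.

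CF proximal day 120 replicate 2 differed from its partner in another way. MATN1 and COMP were 1.65 against 0.118 and 3.08 against 1.00 CPM, while ACAN (15.96 against 12.2) and HAPLN1 (3.76 against 3.29) were close. SOX5 (8.08 against 19.1) and MATN3 (1.37 against 2.90) were lower in it by more than 2-fold, and SOX6 was 5.54 against 7.38 CPM. Between these libraries 21.6% of all 20779 genes were 2-fold or more higher and 22% as much lower. Of the 14 cartilage matrix genes 8 were 2-fold or more higher and 1 as much lower. COL2A1, the chain of type II collagen, was 72.1 CPM against 0.984, and COL9A2, a chain of the type IX collagen on its fibrils, was 9.21 against 0.708. CHAD (1.99 against 4.26), PRG4 (0.871 against 1.10) and CILP2 (0.0697 against 0.0787) were lower. Ciliated airway genes summed to 549 CPM against 164 and basal and secretory genes to 207 against 36.3, with KRT5 at 57.7 CPM. Distal epithelium genes summed to 21113 CPM against 7336, mostly through SFTPC, a surfactant protein, at 16119 against 2789. Only 3 of these 8 genes were 2-fold or more higher. SFTPA1 (1197 against 1594.5), ABCA3 (58.1 against 71.5), LAMP3 (371 against 415) and ETV5 (29.5 against 45.7) were lower. Heart muscle genes were not high there (14.7 CPM). Another proximal library, CF day 65 replicate 1, had 1038 CPM of heart muscle genes and 43.9 CPM of tendon genes, with MATN1 at 0.405 CPM. The part of any other tissue in the member levels was not tested.

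**Figure D2:**
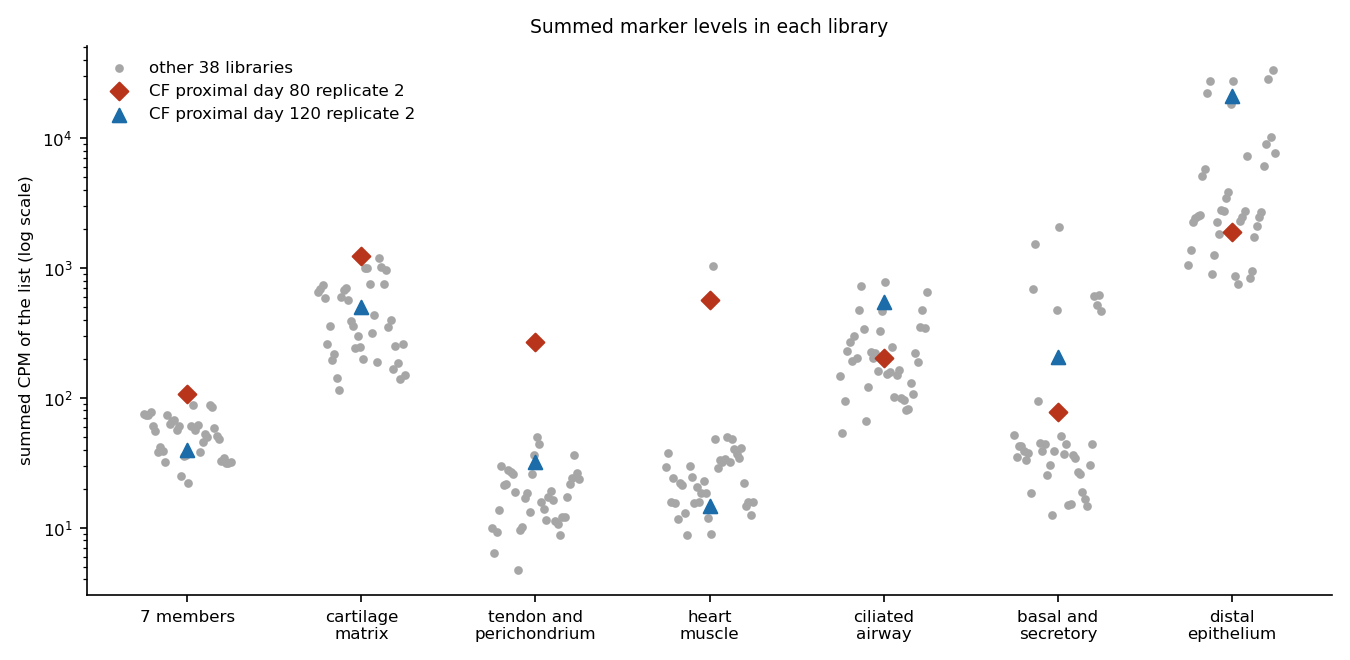
Summed CPM (vertical axis, log scale) of the 7 members and of 6 marker lists in each of 40 libraries. Grey points are 38 libraries, the red diamond is CF proximal day 80 replicate 2 and the blue triangle CF proximal day 120 replicate 2. The diamond lies above all grey points in the sum of the members (107 CPM, against at most 88.6), in the cartilage matrix list (1231, against at most 1196) and in the tendon list (269 CPM), and above all but 1 in the heart muscle list (562 CPM), and the triangle lies within the range of the grey points.

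Proximal and distal lung were compared first over all ages, with 1 mean per group and the 40 libraries in 1 fit. None of the 7 members was called at an adjusted p of 0.05 or less by edgeR's quasi-likelihood test with Benjamini-Hochberg adjustment over 20779 genes, in WT, in CF or for the difference between them, and none by DESeq2. The share called among all genes was 0.00481% in WT (1 gene, MLIP) and 0.00963% in CF (2 genes, MLIP and TWIST1), so few genes of any kind separated the regions. For the difference of the region effect between CF and WT it was 0%, as it was in each of the 10 single combinations of genotype and age. At an unadjusted p under 0.05 there was 1 member in WT (SOX6), where 1.6% of all genes passed, 5 in CF, where 2.59% did, and 1 for the difference (ACAN), where 2.03% did.

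SOX6 was the member most often higher in proximal lung. Its log2 difference was 0.47 ± 0.15 (SE) in WT and 0.38 ± 0.15 in CF, with adjusted p of 1 in both. It was higher in the proximal sample of 16 of 20 pairs from 1 animal, a count that 0.727% of all genes reached. HAPLN1 was higher in 15 of 20 pairs (2.21% of genes) and in 9 of the 10 CF pairs, with proximal over distal ratios from 0.859 to 5.43 in CF and a log2 difference of 0.78 ± 0.23. ACAN and COMP were higher in 13 of 20 pairs, which 12.0% of genes reached, SOX5 and MATN1 in 11 and MATN3 in 8, where the median over all genes was 10.

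For ACAN the log2 difference was 0.02 ± 0.26 in WT, and in CF it was 0.79 ± 0.26. The pair of CF day 80 replicate 2 had a proximal over distal ratio of 9.17, and the other 9 CF pairs had ratios of 0.7 to 3.17. The COMP difference was 0.33 ± 0.36 in WT with 0.88 ± 0.34 in CF, and that of MATN1 in CF was 1.58 ± 0.72. Without the 2 libraries high in MATN1, an alternative chosen after the data were seen, the CF values were 0.57 for ACAN, 0.58 for HAPLN1, 0.41 for COMP, 0.32 for SOX6 and 0.00 for MATN1, all with adjusted p of 1. The SOX5 difference was 0.19 ± 0.15 in WT with -0.17 ± 0.15 in CF, and those of MATN3 were 0.19 ± 0.33 and -0.11 ± 0.31. In WT MATN1 gave no usable fold, because both libraries of 2 groups were at 0.

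At single ages no member was called by edgeR, and DESeq2 called ACAN at day 80 in CF (log2 difference 2.601, adjusted p = 0.00326). At an unadjusted p under 0.05 were SOX6 in WT at day 100 and in CF at day 65, ACAN, HAPLN1 and MATN1 in CF at day 80, and COMP in CF at day 120. The shares of all genes under the same limit were 1.16% in WT at day 100 and 1.79%, 3.22% and 5.2% in CF at days 65, 80 and 120. Leaving out CF proximal day 80 replicate 1 gave a call for ACAN at day 80 in CF (log2 difference 3.16, adjusted p = 0.044 by edgeR), and leaving out CF proximal day 120 replicate 1 gave one for SOX5 at day 120 (-1.01, adjusted p = 0.0462, lower in proximal). In both cases the group was left with 1 library, the one that stood apart, which the fit assumes to vary like the other groups.

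**Figure D3:**
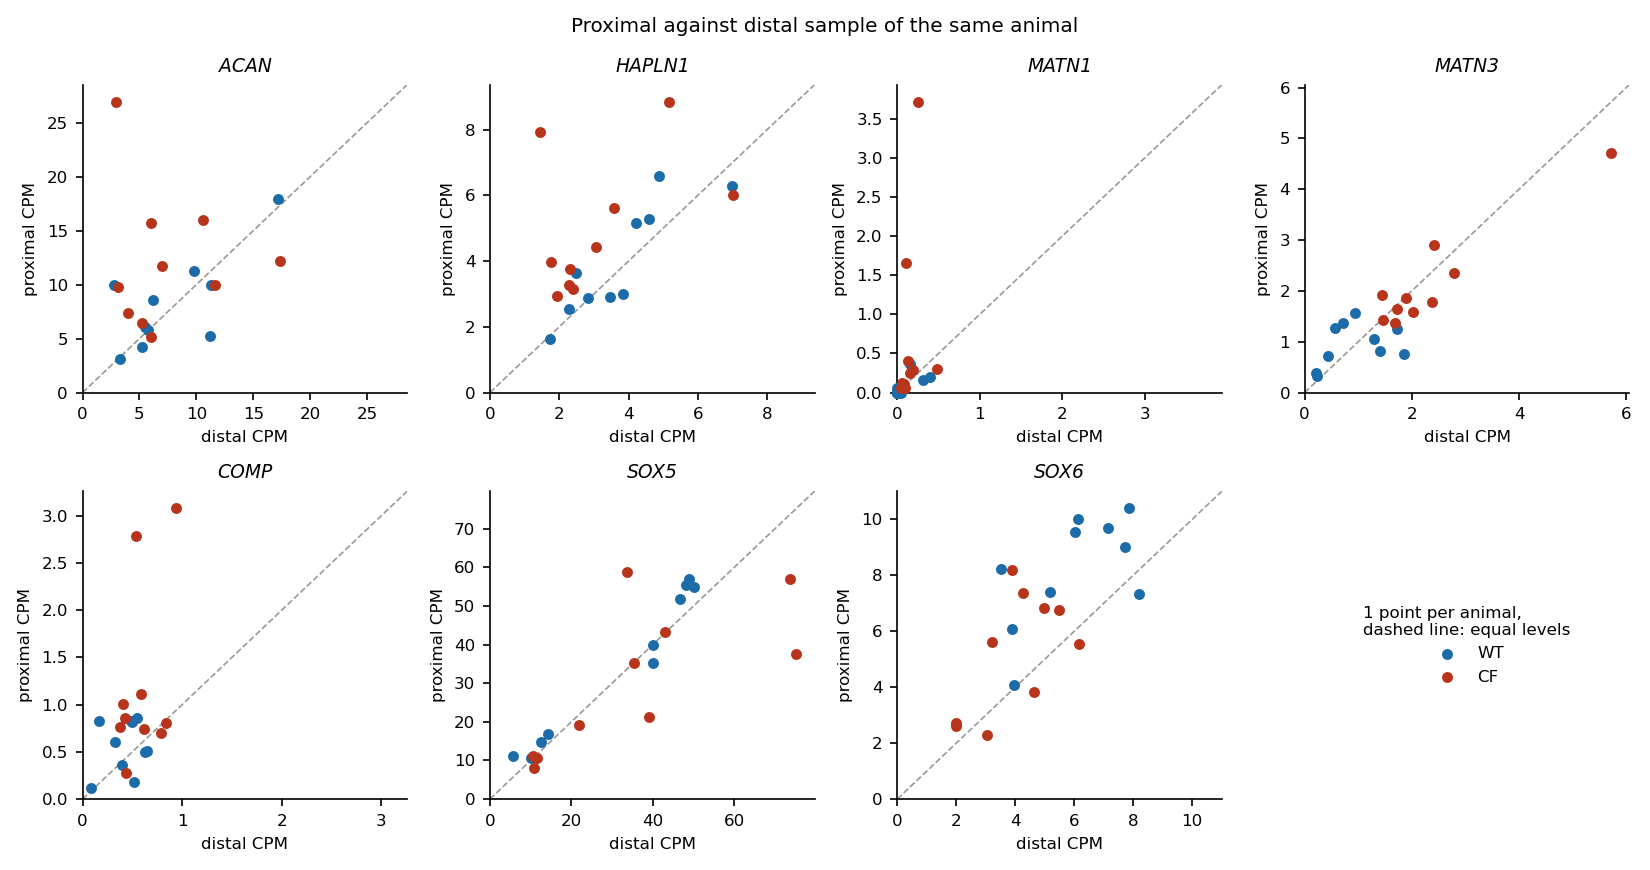
CPM in the proximal sample (vertical axis) against the distal sample of the same animal (horizontal axis), both linear, 1 panel per member, WT in blue and CF in red, with a dashed line of equal levels. Points lie on both sides of the line. SOX6 is above it in 16 of 20 pairs and MATN3 in 8 of 20, and the 2 highest MATN1 points are the CF animals of day 80 replicate 2 and day 120 replicate 2.

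Over gestation, SOX5 was the member called in 3 of the 4 courses by edgeR. In WT proximal lung its libraries read 55.0 and 51.8 CPM at day 65, 56.9 and 55.6 at day 80, 39.9 and 35.2 at day 100, 14.7 and 16.8 at day 120, and 10.7 and 11.2 at term. From day 80 on, no age overlapped with the next. In WT distal lung they read 50.2 and 46.7, 48.8 and 48.1, 40.2 and 39.996, 12.5 and 14.4, and 9.97 and 5.73 CPM at the same ages. SOX5 changed over the 5 ages in WT proximal (adjusted p = 6.76e-06, edgeR F test), WT distal (0.000166) and CF distal lung (0.00135), and kept these calls without any 1 library.

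SOX5 fell by 1.23 ± 0.12 on the log2 scale from day 100 to day 120 in WT proximal (adjusted p = 0.00275, edgeR) and by 1.57 ± 0.23 in WT distal lung (0.0128). The distal call was lost without any 1 of the 4 libraries of these ages (adjusted p 0.0646 without day 120 replicate 2, 0.122 without day 120 replicate 1, and 0.131 without either library of day 100), with a log2 change of -1.48 to -1.68. With the WT day 100 libraries, which share an animal label, summed into 1, the distal adjusted p of this step was 0.139 and the proximal one 0.0191. With all 40 libraries in 1 fit the proximal call was lost (-1.25, 0.0998). From day 120 to term SOX5 fell by 0.52 ± 0.12 in WT proximal (adjusted p = 0.0144) and by 0.80 ± 0.22 in WT distal lung (0.0302). The proximal call was lost without day 120 replicate 2 (0.104) or term replicate 1 (0.0687), and the distal one without any of the 6 libraries of days 80, 100 and 120 (0.0516 to 0.132) or with the day 100 libraries summed (0.0552). Both were lost with all 40 libraries in 1 fit (0.394 and 0.153).

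The step from day 80 to day 100 in WT proximal lung was -0.60 ± 0.12 (adjusted p = 0.0426), and it lost its call without any 1 of the 8 libraries before term (0.0617 to 0.261) or with the day 100 libraries summed (0.216). RLE scaling (0.0525), no filter (0.0626), thinned counts (0.0568), a replicate block (0.0675) and all 40 libraries in 1 fit (0.752) also ended it. The share of all genes called was 0.011% from day 65 to 80, 1.94% from day 80 to 100, 2.67% from day 100 to 120 and 24.6% from day 120 to term in WT proximal lung. In WT distal lung the shares of the same steps were 0.0164%, 1%, 2.49% and 25.8%.

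In CF proximal lung SOX5 was more scattered, at 35.2 and 58.7 CPM at day 65, 37.7 and 56.9 at day 80, 43.2 and 21.3 at day 100, 19.1 and 8.08 at day 120, and 11.2 and 10.5 at term. No member was called there over the 5 ages, where 5.36% of all genes were, and the adjusted p of SOX5 was 0.111. SOX5 alone had an unadjusted p under 0.05, where 20.2% of all genes did, and DESeq2 called it (adjusted p = 0.00354). In edgeR it was 0.0209 without day 120 replicate 1, 5.01e-05 with all 40 libraries in 1 fit, and 0.0782 without the 2 libraries high in MATN1. In CF distal lung SOX5 read 35.3 and 33.6 CPM at day 65 and 75.3 and 73.6 at day 80, the highest of all, then 43.1 and 39.1, 21.8 and 10.9, and 10.7 and 11.5. The rise from day 65 to day 80 did not pass in edgeR (log2 1.14 ± 0.30, adjusted p = 0.282), and nor did any other step of SOX5 in CF. DESeq2 called this rise (0.0464) and the fall from day 100 to day 120 in CF distal lung (log2 -1.28, 0.00538), which edgeR called with all 40 libraries in 1 fit (-1.33, 0.0481) and without day 120 replicate 1 (-1.92, 0.0154). The fall from day 120 to term there was called without day 120 replicate 2 (-1.01, 0.00813). Between consecutive ages 0%, 0%, 0.0203% and 0.356% of all genes were called in CF proximal lung, and 0%, 0%, 0.928% and 23% in CF distal lung.

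**Figure D4:**
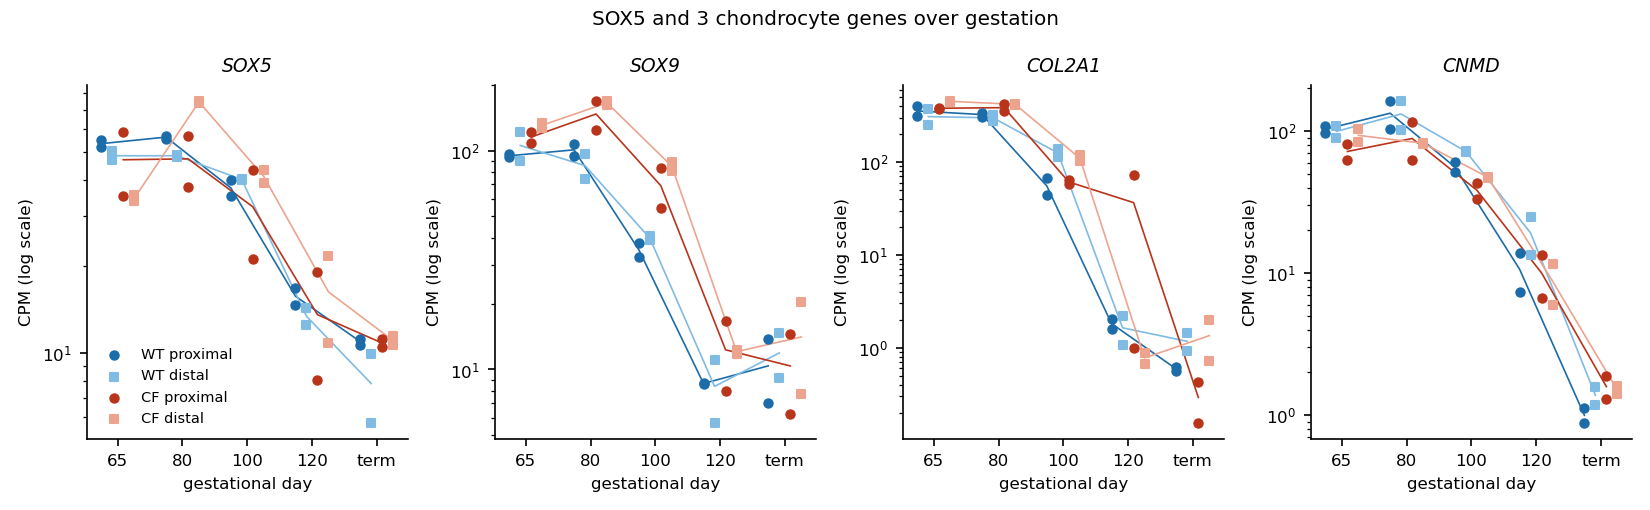
CPM (vertical axis, log scale) of SOX5, SOX9, COL2A1 and CNMD against gestational age in days (horizontal axis), 1 point per library and a line through group means, for WT and CF proximal and distal lung. All 4 genes are lower at term than at day 65, COL2A1 from 249 to 459 CPM down to 0.154 to 1.98 CPM, and 1 CF proximal library of day 120 stands out at 72.1 CPM in COL2A1.

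The chondrocyte genes COL2A1, SOX9 and CNMD were closer to SOX5 than the other members were. SOX5 had a Pearson r of 0.88 with COL2A1, 0.87 with SOX9 and 0.88 with CNMD, which encodes the cartilage glycoprotein chondromodulin (log2 CPM, n = 40 libraries that share age). With COL9A2 its r was 0.495. Of 14867 genes of any kind 4.67% had an r over 0.8 with SOX5. The other members did not follow COL2A1, SOX9 and CNMD, with r from -0.43 (ACAN with CNMD) to 0.47 (SOX6 with CNMD). COL2A1 was 249 to 459 CPM in all 8 libraries of day 65, distal lung included, and 0.154 to 1.98 CPM in the 8 of term. SOX9, which distal lung tip epithelium also expresses, was 89.9 to 134 CPM at day 65 and 6.27 to 20.4 CPM at term. COL2A1 changed over the ages in WT proximal (adjusted p = 4.87e-07), WT distal (5.7e-06) and CF distal lung (3.17e-05, edgeR). Not all cartilage matrix genes fell. In WT distal lung the group mean of MATN4 was 10.7 CPM at day 65 and 134 at term, and that of CHAD 0.997 and 2.94.

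ACAN did not follow COL2A1. Over the 5 ages it changed in WT proximal (adjusted p = 0.0229, edgeR F test) and CF distal lung (0.0258), in different shapes. In WT proximal lung it read 5.29 and 3.13 CPM at day 65, 4.23 and 8.62 at day 80, 6.10 and 5.79 at day 100, 9.99 and 9.95 at day 120, and 17.98 and 11.3 at term, so term lay above all earlier ages. In CF distal lung it read 7.002 and 6.02, 3.08 and 2.94, 6.05 and 4.02, 17.4 and 10.6, and 11.6 and 5.25 CPM, with day 120 highest. The WT call was lost without term replicate 1 (adjusted p = 0.103) or with all 40 libraries in 1 fit (0.113), and the CF call without either library of day 80 (0.0863 and 0.0912), day 100 replicate 2 (0.058) or day 120 replicate 1 (0.0729).

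In WT distal lung the ACAN test gave 0.452, with replicates as far apart as 2.73 and 11.3 CPM at day 120. The share of all genes called over the 5 ages was 40.8% in WT proximal, 40.4% in WT distal and 33.9% in CF distal lung. Against these, 2 members of 6 tested (SOX5 and ACAN) were called in WT proximal, 2 of 7 (SOX5 and SOX6) in WT distal and 4 of 7 (SOX5, ACAN, HAPLN1 and SOX6) in CF distal lung. MATN1 did not pass the filter on low counts in WT proximal lung.

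The group mean of SOX6 was lowest at term in all 4 courses. In CF distal lung it went from 4.25 and 6.17 CPM at day 120 to 2.00 and 1.98 at term, a fall of 1.39 ± 0.32 on the log2 scale (adjusted p = 0.0194, edgeR), lost without term replicate 2 (0.0658). In WT proximal lung it went from 10.02 and 9.56 to 4.08 and 6.07 CPM, a fall of 0.95 ± 0.26 (0.0262), lost without day 120 replicate 1 (0.111), day 120 replicate 2 (0.0945) or term replicate 1 (0.133), or with all 40 libraries in 1 fit (0.0705). In CF proximal lung the values were 7.38 and 5.54 against 2.74 and 2.61 CPM, with a log2 difference of -1.30 ± 0.54 that did not pass (0.308), and was called with all 40 libraries in 1 fit (-1.27, 0.0143). Over the 5 ages SOX6 was called in WT distal (0.0358) and CF distal lung (0.0376), and 8 of 10 single libraries in each could not be left out without losing the call (highest adjusted p 0.106 and 0.107). In WT distal lung the exceptions were day 65 replicate 2 and day 100 replicate 2, and in CF distal lung both libraries of day 120. The WT distal call was also lost with the day 100 libraries summed (0.0641) or all 40 libraries in 1 fit (0.0616). In WT proximal lung SOX6 had 0.0624 in edgeR and was called by DESeq2 (0.0068), and in CF proximal lung it had 0.431 and was called with all 40 libraries in 1 fit (0.00992). The SOX6 fall from day 80 to day 100 in WT distal lung was called by DESeq2 alone (log2 -0.86, adjusted p = 0.046).

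HAPLN1 rose from day 120 to term in CF distal lung, from 2.27 and 2.32 to 5.18 and 7.01 CPM (log2 1.40 ± 0.42, adjusted p = 0.0425, edgeR, where 23% of all genes were called). The call held only when term replicate 1 was the library left out, and without each of the other 9 the adjusted p was 0.0532 to 0.151. With thinned counts (0.0774) or all 40 libraries in 1 fit (0.0556) it was lost too. Over the 5 ages HAPLN1 was called in CF distal lung (0.0386), and leaving out any 1 of 8 libraries (0.0503 to 0.162) or thinning (0.0625) ended that call, the exceptions being day 100 replicate 1 and day 120 replicate 2. In WT distal lung HAPLN1 passed only without term replicate 1 (0.0431, against 0.197 with all libraries). MATN1, MATN3 and COMP were not called over the ages in any of the courses in which they were tested, with adjusted p from 0.16 to 0.928.

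CF was compared with WT in each region, averaged over the 5 ages. MATN3 was higher in CF in both regions, by 1.20 ± 0.32 on the log2 scale in proximal (adjusted p = 0.0152, edgeR) and 1.498 ± 0.32 in distal lung (0.00277). SOX6 was lower in CF in both, with log2 differences of -0.71 ± 0.18 in proximal (0.0138) and -0.61 ± 0.13 in distal lung (0.00199). MATN1 was called in proximal lung (0.0224), higher in CF. So 3 of 7 members were called in proximal lung, where 21.8% of all genes were, and 2 of 7 in distal lung, where 31.2% were. Without the 2 libraries high in MATN1 there were 2 in proximal lung, MATN3 (1.29, adjusted p = 0.013) and SOX6 (-0.77, 0.01), where 25.5% of all genes were called. Over days 65 to 120 alone 3 members (ACAN, COMP and SOX6) were called in proximal lung and 3 (HAPLN1, MATN3 and SOX6) in distal lung, where 20.6% and 32.3% of all genes were.

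**Figure D5:**
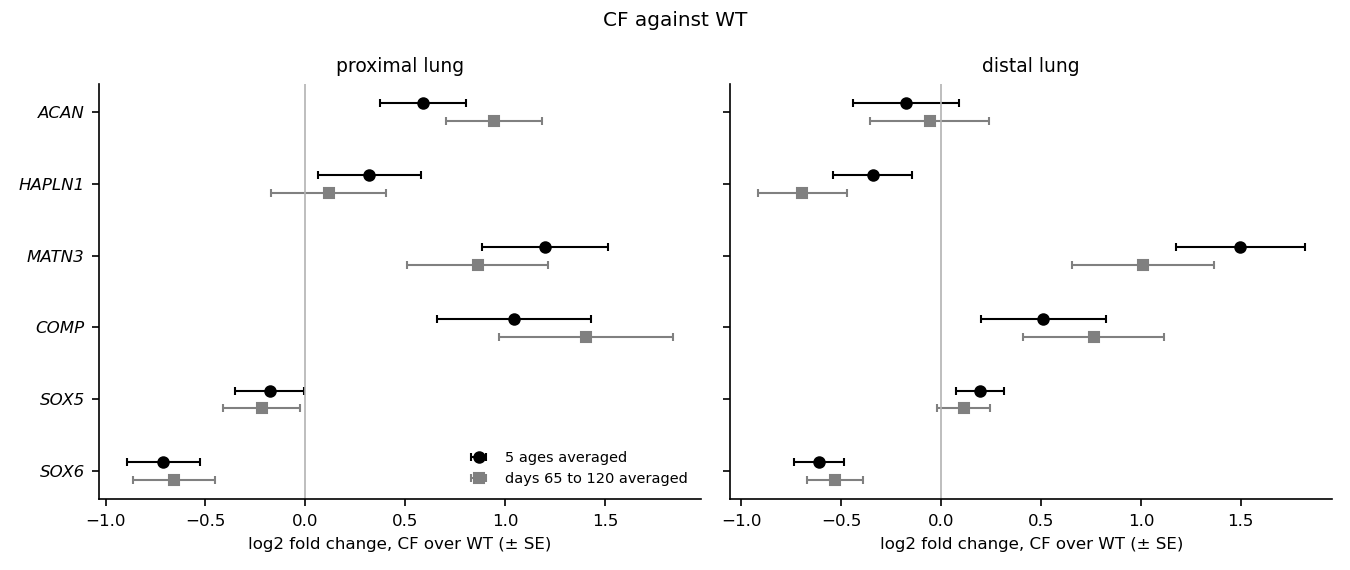
Log2 fold change of CF over WT ± SE (horizontal axis) for 6 members in proximal and distal lung, with all 5 ages averaged (black circles) and days 65 to 120 averaged (grey squares). MATN1 is left out because groups of WT libraries were at 0. MATN3 lies to the right of 0 (1.20 and 1.498 with all ages) and SOX6 to the left (-0.71 and -0.61) in both regions.

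Both CF libraries of MATN3 were above both WT libraries in all 10 combinations of region and age, which 2.16% of all genes did in this direction. In proximal lung CF against WT read 1.65 and 1.78 against 0.395 and 1.57 CPM at day 65, 1.86 and 1.92 against 1.36 and 1.05 at day 80, 1.58 and 2.35 against 1.25 and 0.751 at day 100, 2.90 and 1.37 against 0.822 and 1.27 at day 120, and 1.43 and 4.72 against 0.331 and 0.711 at term. In distal lung it was 1.72 and 2.38 against 0.208 and 0.933, 1.90 and 1.44 against 0.724 and 1.30, 2.02 and 2.79 against 1.72 and 1.86, 2.41 and 1.69 against 1.40 and 0.575, and 1.46 and 5.72 against 0.226 and 0.439 CPM at the same ages. The ratio of group means was smallest at day 100 in distal lung and largest at term, where depth was alike in the genotypes. Proximal and distal samples come from the same animals, so the 10 combinations are not independent.

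At term MATN3 was higher in CF distal lung by 3.45 ± 0.76 (adjusted p = 0.00838, edgeR, where 15.2% of all genes were called). This call was lost without WT distal term replicate 1 (log2 3.02, adjusted p = 0.0772) or CF distal term replicate 2 (2.12, 0.106), the library at 5.72 CPM. In proximal lung at term the difference was 2.55 ± 0.73 (adjusted p = 0.054), and leaving out any 1 of 5 libraries brought it under 0.05. These were WT day 65 replicate 1 (0.041) and 2 (0.0416), CF day 120 replicate 1 (0.0287) and 2 (0.0287), and CF term replicate 1 (0.021). It was also called by DESeq2 (0.00303), with all 40 libraries in 1 fit (0.0251), with thinned counts (0.0448) and without the 2 libraries high in MATN1 (0.0326). With counts thinned to equal depth the averaged differences of MATN3 were 1.22 (adjusted p = 0.0112) in proximal and 1.56 (0.004) in distal lung. Averaged over days 65 to 120 alone they were 0.86 ± 0.35 (0.1) and 1.01 ± 0.36 (0.0419), so the proximal call was lost without term.

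Both CF libraries of SOX6 were below both WT libraries in 9 of the 10 combinations, and 1.98% of all genes were lower in 9 or more. The exception was distal lung at day 120, with 4.25 and 6.17 CPM in CF and 6.11 and 6.02 in WT. At day 65 CF and WT read 6.85 and 8.20 against 10.4 and 9.70 CPM in proximal and 4.97 and 3.89 against 7.86 and 7.16 in distal lung. At term they read 2.74 and 2.61 against 4.08 and 6.07 CPM in proximal and 2.00 and 1.98 against 3.96 and 3.88 in distal lung.

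The averaged SOX6 calls held without any 1 library and with thinned counts (log2 -0.77, adjusted p = 0.0139, and -0.67, 0.00136). At a single age SOX6 was called in distal lung at term (log2 -0.95 ± 0.28, 0.0355), and leaving out any 1 of 10 libraries (0.0503 to 0.117) or fitting all 40 libraries at once (0.065) ended that call. The 10 were both WT and both CF libraries of day 80 and of term and both CF libraries of day 100. Over the 40 libraries r of MATN3 with SOX6 was -0.40. The other members were without overlap less often, with CF higher in 5 of 10 combinations for MATN1 and COMP (22.9% of all genes were higher in as many), in 3 for ACAN (40.7%) and in 2 for HAPLN1 and SOX5 (58.3%). CF was lower in 3 for HAPLN1 (38.9% of genes), 2 for ACAN and COMP (55.6%) and 1 for SOX5 (72%). At single ages before term no member was called by edgeR in either region, where 0.167%, 0.0885%, 0.383% and 1.35% of all genes were called in proximal lung at days 65, 80, 100 and 120, and 5.23%, 5.92%, 5.3% and 4.38% in distal lung. At term in proximal lung the share was 6.09%. DESeq2 called ACAN in proximal lung at day 65 (log2 1.67, adjusted p = 0.0242) and SOX6 in distal lung at days 65 (-0.80, 0.0136) and 80 (-0.67, 0.0404). COMP in proximal lung at day 120 had a difference of 3.08 ± 0.93 (adjusted p = 0.112, edgeR). It was called by DESeq2 (3.10, 0.0131), with all 40 libraries in 1 fit (3.08, 0.0253), and without CF replicate 1 of that age (0.0119), which left only the library at 3.08 CPM in that group.

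For MATN1, the CF and WT values at term were 0.252 and 0.287 against 0.0261 and 0 CPM in proximal and 0.158 and 0.190 against 0 and 0 CPM in distal lung, with 26, 26, 3, 0, 15, 17, 0 and 0 reads. In distal lung the CF mean was 13.02 times a WT floor of 3 reads over both libraries, a ratio that ignores the error of the CF counts. The adjusted p was 0.0551 (edgeR). It was 0.0128 by DESeq2, 0.0429 with a replicate block, and 0.041 and 0.0405 without WT distal day 65 replicate 1 or 2. The averaged proximal call was lost without the 2 libraries high in MATN1 (adjusted p = 0.118), without CF proximal day 80 replicate 2 alone (0.072), without WT proximal day 100 replicate 1 (0.0519), with thinned counts (0.0789) and over days 65 to 120 alone (0.0558). In distal lung the averaged adjusted p was 0.103, and 0.0296 without WT distal day 65 replicate 1, the WT library of that age with 12 reads.

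ACAN and COMP did not pass in proximal lung, with log2 differences of 0.59 ± 0.21 (adjusted p = 0.0651) and 1.05 ± 0.39 (0.0676). Averaged over days 65 to 120 both passed, at 0.94 ± 0.24 (0.0143) and 1.41 ± 0.44 (0.0348). Leaving out WT day 80 replicate 2 (0.0449), CF day 80 replicate 1 (0.0234) or CF day 120 replicate 1 (0.0372) also brought ACAN under 0.05, and so did WT day 80 replicate 1 (0.0332), CF day 80 replicate 1 (0.0426) or CF day 120 replicate 1 (0.0248) for COMP. DESeq2 called both (0.0317 and 0.0281), and all 40 libraries in 1 fit called COMP (0.0258). Without the 2 libraries high in MATN1 the differences were 0.36 (0.182) for ACAN and 0.58 (0.268) for COMP. In distal lung ACAN differed by -0.18 ± 0.27 (0.666) and COMP by 0.51 ± 0.31 (0.236).

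HAPLN1 differed by 0.32 ± 0.26 in proximal (adjusted p = 0.411) and -0.34 ± 0.20 in distal lung (0.208), and was lower in CF distal lung averaged over days 65 to 120 (-0.69 ± 0.22, 0.0275). At term its distal values turned to 5.18 and 7.01 CPM in CF against 4.21 and 1.74 in WT. SOX5 differed by -0.18 ± 0.17 (0.51) and 0.19 ± 0.12 (0.24), with 1 distal call when CF distal day 120 replicate 2 was left out (0.26, adjusted p = 0.0431).

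Other genes of cartilage were read from lists. Of 14 cartilage matrix genes tested, 6 were higher in CF proximal lung averaged over the ages and none lower, where 21.8% of all genes were called. They were CILP (1.74 ± 0.41), CILP2 (no usable fold, since both WT libraries of days 100 and 120 were at 0), COL11A2 (1.85 ± 0.24), COL9A1 (0.97 ± 0.23), COL9A3 (2.07 ± 0.25) and MATN4 (0.71 ± 0.23 on the log2 scale), which are intermediate layer proteins, collagen chains and a further matrilin. The median of the list was 0.73, where that of all genes was 0.04. In CF proximal day 80 replicate 2, CILP was 31.3 CPM against 1.77 in its partner and CILP2 2.25 against 0.334, and in CF proximal day 120 replicate 2 MATN4 was 193 against 76.6. Without these libraries 5 were higher, where 25.5% of all genes were called, the list median was 0.41, CILP was at 1.07 ± 0.28 and MATN4 did not pass (0.58 ± 0.22, adjusted p = 0.0688, edgeR). In distal lung 4 were higher (CILP, COL11A2, COL9A1 and COL9A3) and 3 lower (CNMD, COL11A1 and EPYC), where 31.2% of all genes were called, with a median of 0.04 and 0.01 for all genes. COL2A1, the main collagen, was called in neither region, nor were CHAD (0.64 ± 0.27 and 0.62 ± 0.25), FMOD (0.41 ± 0.20 and -0.01 ± 0.11) and PRG4 (0.94 ± 0.40 and -0.44 ± 0.19).

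COL9A2 was lower in CF at term, at 2.94 and 3.81 CPM in WT proximal and 3.35 and 5.94 in WT distal lung against 0.184 and 0.0662, and 0.422 and 0.0223 CPM in CF. The log2 difference was -4.72 ± 1.04 in proximal (adjusted p = 0.017, edgeR) and -4.34 ± 0.80 in distal lung (0.00297), while COL9A3 was higher in CF by 2.41 ± 0.59 and 2.38 ± 0.53, and COL9A1 did not pass (0.70 ± 0.54 and -0.30 ± 0.49). From day 120 to term 9 of 13 matrix genes were called in WT proximal lung, 7 of them lower, among them CNMD (-3.41 ± 0.34) and COL11A1 (-2.70 ± 0.19), and 2 higher, COL9A2 (3.57 ± 0.64) and EPYC, where 24.6% of all genes were called. In WT distal lung 9 of 13 were called, where 25.8% of all genes were, 5 lower and 4 higher, among the latter PRG4 (4.19 ± 0.46) and CILP (2.63 ± 0.65). In the same step in CF distal lung 5 of 13 were called, 4 lower and CILP higher (2.92 ± 0.64), where 23% of all genes were, and in CF proximal lung none of 14, where 0.356% were.

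For the other lists, CF was again compared with WT averaged over the ages, where 21.8% of all genes were called in proximal and 31.2% in distal lung. Of 15 chondrogenic regulators tested, 3 were higher in CF proximal lung, FOXC2 (1.28 ± 0.27), PTH1R, the receptor for parathyroid hormone related peptide (0.94 ± 0.18), and FGFR3 (0.59 ± 0.10). In distal lung 4 were higher and 1 lower, with SOX9 higher by 0.63 ± 0.16 (adjusted p = 0.0099) and IHH, a hedgehog ligand of growth plates, lower (-1.36 ± 0.47). Aggrecan turnover genes gave 2 of 8 in proximal and 3 of 8 in distal lung, all higher, led by ADAMTS5, an aggrecan-cutting protease (0.80 ± 0.12 and 0.63 ± 0.10). Of the 8 hypertrophic cartilage and bone genes tested, BGLAP was higher (1.77 ± 0.40 and 1.84 ± 0.31) and COL10A1 lower (-1.42 ± 0.38 and -1.62 ± 0.43) in proximal and distal lung. Proteoglycan synthesis genes gave 1 of 12 and 2 of 12. Without the 2 libraries high in MATN1 the proximal counts were 4 regulators, with PTHLH lower (-1.30 ± 0.39), 3 turnover, 2 hypertrophic and 3 synthesis genes, where 25.5% of all genes were called. From day 120 to term 5 of the 12 fell in CF distal lung, where 23% of all genes were called, CHST3, a chondroitin sulfotransferase, most (-1.92 ± 0.30). In WT proximal lung 3 of them fell, in WT distal lung 4 fell and 1 rose, and in CF proximal lung none was called, where 24.6%, 25.8% and 0.356% of all genes were. Between proximal and distal lung none of these lists had a called gene.

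Genes with the profile most like that of each member over the 40 libraries were found by Pearson r of log2 CPM among 14867 or 14868 genes. SOX5 was nearest to EML4 (0.97), ST8SIA2 (0.96) and PHF6 (0.96), and 4.67% of genes had an r over 0.8 with it. MATN3 was nearest to KLHDC2 (0.83), SLC18B1 (0.83) and PRPF39 (0.81). For the remaining members no gene passed 0.8. ACAN was nearest to LTBP1 (0.76), FAM46A (0.76) and FAP (0.74), and SOX6 to HSBP1L1, DCLK1 and DYX1C1 (0.76 each). COMP was nearest to CACNA1S (0.68), CCDC57 and CCDC138 (0.65 each), MATN1 to WNK4 (0.71), PYCR1 (0.66) and PI3 (0.66), which without the 2 libraries high in MATN1 had 0.58, 0.72 and 0.53, and HAPLN1 to CCDC160 (0.54), LOC101115640 (0.52) and ADAMTS8 (0.49). The libraries share genotype, depth and age, and r is a description.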

How the data were processed

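The authors sequenced oligo dT libraries as 100 bp paired reads, aligned them to Oar_v4.0 with STAR and counted reads on genes with featureCounts 1.6.3. The deposited counts are raw. The submitters' notes and the methods name different STAR versions, and the annotation release, strand setting and treatment of mates are not given in the sources used here. Another table, which repeats the 20 CF columns, was not used.

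The software was edgeR 4.0.16 on limma 3.58.1 under R 4.3.3, and DESeq2 1.42.0 as an alternative. Genes were kept by filterByExpr (count minimum 10, total minimum 15), scaled by TMM, fitted with glmQLFit and tested with glmQLFTest, and p-values were adjusted by Benjamini-Hochberg over every gene in the fit. A call is an adjusted p of 0.05 or less. Region used all 40 libraries, each age course 10 and each genotype comparison 20. SE is the log2 change over the square root of F. The fits were tested on simulated data. Proximal and distal samples with the same replicate number come from the same animal per the labels, and their deviations from group means had r from -0.0943 to 0.626 (median 0.229, over 0.1 in 6 of 10 conditions).

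All 7 members are named. Genes of the cartilage matrix list and SOX9 are given in ranges or in full, other lists by up to 3 called genes changing most in each direction, and the 3 genes nearest to each member by r. Marker genes and their values were chosen with the 2 libraries that stood apart in view. The members and lists were chosen with earlier results of these data known. Of 134 listed genes 126 were in the tables, CNMD and 6 others under another name. The others were not analysed here. Alternatives were RLE scaling, DESeq2, no filter, the study's limits (adjusted p of 0.001, log2 change of 0.58), a replicate block, thinning to 24670355 reads, the WT day 100 libraries summed, other sets of libraries in 1 fit, days 65 to 120 averaged and each library left out. With 2 libraries a group, the spread behind the p-values is pooled over all groups of a fit and moderated across genes. It covers only the libraries in that fit. Both WT libraries of day 100 carry 1 animal label, so their spread may not be one between animals.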

Additional observations from a re-analysis of the deposited data

Results flagged for a closer look

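The following ratios of mean CPM stood out because both libraries of 1 group moved one way and both of the other moved the opposite way, with no overlap. None of these differences was tested, and each group has 2 libraries. From day 120 to term in proximal lung, the ACAN ratio was 1.47 in WT and 0.583 in CF, and the COMP ratio was 2.85 in WT and 0.253 in CF. COMP in CF at day 120 includes the library at 3.08 CPM. In distal lung over the same step MATN1 had a ratio of 0 in WT, from 2 and 16 reads at day 120 to 0 and 0 at term, and 2.22 in CF. At day 80 the CF over WT ratio of ACAN was 2.85 in proximal lung, where CF includes the library at 26.9 CPM, and 0.527 in distal lung. At day 65 the CF over WT ratio of COMP was 0.945 in proximal and 2.21 in distal lung. The proximal libraries differed by little, 0.746 and 0.803 CPM in CF against 0.816 and 0.824 in WT, and the distal WT libraries held 19 and 6 reads. In the replicated test of the region effect, CF minus WT averaged over ages, ACAN differed by 0.78 ± 0.36 and COMP by 0.55 ± 0.49 on the log2 scale, both with an adjusted p of 1 (edgeR).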

How the results depend on the processing

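Over every comparison, single ages and steps included, 9350 member results were recomputed. Of these 9177 kept their side of the threshold, 120 lost a call, 53 gained one and none reversed. The cause of these moves was not tested. Under the study's stricter limits the members called over the 5 ages were 1 in WT proximal, 1 in WT distal and 0 in CF distal lung, and 0 in CF against WT in either region, between consecutive ages in any course with calls and at single ages in distal lung. DESeq2 called 1 member over the ages in CF proximal lung (20.5% of all genes), 5 in CF against WT proximal lung averaged (28.6%), 1 between regions in CF (ACAN at day 80, 0.342%), 5 between consecutive ages in CF distal lung (0.692% to 33.8% a step), and 3 and 5 at single ages in CF against WT proximal (2.85% to 12.8%) and distal lung (10.6% to 22.8%). It also added SOX6 over the ages in WT proximal lung (50.6%) and from day 80 to day 100 in WT distal lung (4.37%). With all 40 libraries in 1 fit the counts over ages were 1, 1 and 2 in WT proximal, WT distal and CF proximal lung, those between consecutive ages 0, 1 and 1, and those of CF against WT at single ages 2 and 1. With the WT day 100 libraries summed, WT distal lung had 1 call over ages and 0 between consecutive ones. Thinning left 1 consecutive call in CF distal lung, and thinning, or removal of the 2 libraries high in MATN1, gave 1 call in CF against WT proximal lung at single ages (MATN3 at term). For the settings other than DESeq2 the share of all genes called is not given here, so these counts cannot be read against it.

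Leaving out each library in turn, calls between regions stayed at 0, or 0 to 1 at single ages in CF. Over the ages there were 1 to 2 in both WT courses, 0 to 1 in CF proximal and 1 to 4 in CF distal lung. CF against WT averaged over ages gave 2 to 5 proximal and 2 to 3 distal calls, and single ages 0 to 2 and 0 to 3. Consecutive ages gave 1 to 4 in WT proximal, 0 to 2 in WT distal, 0 in CF proximal and 0 to 4 in CF distal lung. Between regions these fits kept the dispersion trend of all libraries. The share of all genes called without each library is not given here either.

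With the animal as replicate block, 0 members were called between regions, and HAPLN1 in CF had a log2 difference of 0.76 (adjusted p = 0.303). Across ages and genotypes the labels tie no animal to a replicate number, apart from the label shared by WT day 65 replicate 2 and CF day 100 replicate 2 (median r 0.00412 and 0.0193). A replicate block there ended 1 call, that of SOX5 from day 80 to day 100 in WT proximal lung (0.0675). It added that of MATN1 in CF against WT distal lung at term (0.0429, edgeR).

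MATN1 had 0 to 16 reads in WT libraries, and 0 to 3 in those of term, which were among the deepest. Before term WT libraries were the shallower ones, and 2 libraries a group leave single-age changes uncertain.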
